A study of Mus musculus with 28 samples.

Results

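The myelin structural genes *Mbp*, *Mobp*, *Mag*, *Mog*, *Cnp*, *Mal*, *Cldn11*, *Ugt8a* and *Fa2h* were followed across 28 RNA-seq libraries of mouse brain. They were taken by gene symbol, with earlier results of these data known, and are 9 of the 23038 genes listed. The E18.5 midbrain, taken late in embryonic life, gave 6 Nova1hu/hu and 6 Nova1wt/wt libraries. At P21, a juvenile stage about the time of weaning, midbrain gave 4 libraries of each genotype, and so did cortex. All mice had the BL6 strain background. NOVA1 is a neuronal RNA-binding protein that regulates alternative splicing. Nova1hu/hu mice are homozygous for a knock-in allele that encodes the modern human valine in place of an isoleucine of mouse NOVA1, and the same allele carries 2 silent changes made for genotyping. Nova1wt/wt siblings carry none of these changes, and the line was backcrossed to C57BL/6J at least 8 times. The sources used here name no further allele, and no agent, that both genotypes share.

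Myelin is the stack of membrane that oligodendrocytes wrap around axons of the central nervous system. It compacts where the cytoplasmic faces of the membrane are drawn together by basic proteins, and it is rich in galactolipids that carry 2-hydroxylated fatty acids. In the mouse brain it forms mainly after birth, earlier in caudal than in rostral regions. *Mbp* encodes myelin basic protein and *Mobp* a second small basic protein of the compact layers. *Mag* encodes the adhesion molecule of the innermost wrap, which faces the axon, and *Mog* an immunoglobulin-domain protein of the outermost surface. *Cnp* encodes the phosphodiesterase that keeps cytoplasmic channels open within the sheath. *Mal* encodes a proteolipid of membrane sorting and *Cldn11* the claudin of the tight junctions between myelin layers. *Ugt8a* encodes the galactosyltransferase that makes galactocerebroside and *Fa2h* the hydroxylase that makes its 2-hydroxylated fatty acids.

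Promoters are shown for the 4 members in which a short motif of an oligodendrocyte transcription factor was found next to the transcription start. RefSeq promoter sequences on GRCm38.p6 were at hand for 7 of the 9 members, namely *Mal*, *Cldn11*, *Ugt8a*, *Mag*, *Mobp*, *Cnp* and *Mog*. The 250 bases before each start were searched on both strands for ACAAAG and AACAAT (SOX family), CTGGCAC and CTGGTAC (MYRF) and CAGCTG (OLIG family), none of which overlap each other in the matches found. In the stretches below, which end at the base before the start and read 5′ to 3′ on the strand of the gene, capitals mark these matches on either strand. They lie at chr9:120149492-120149741 (plus strand) for Mobp, chr7:30914923-30915022 (minus strand) for Mag, chr11:100574739-100574938 (plus strand) for Cnp and chr17:37023399-37023498 (minus strand) for Mog.
Mobp: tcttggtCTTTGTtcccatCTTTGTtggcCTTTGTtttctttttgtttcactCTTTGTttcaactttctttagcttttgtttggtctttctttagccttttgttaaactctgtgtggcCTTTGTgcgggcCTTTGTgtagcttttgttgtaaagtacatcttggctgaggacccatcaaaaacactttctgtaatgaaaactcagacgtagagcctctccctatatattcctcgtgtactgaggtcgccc
Mag: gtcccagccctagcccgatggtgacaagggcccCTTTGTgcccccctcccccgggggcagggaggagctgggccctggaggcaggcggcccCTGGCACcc
Cnp: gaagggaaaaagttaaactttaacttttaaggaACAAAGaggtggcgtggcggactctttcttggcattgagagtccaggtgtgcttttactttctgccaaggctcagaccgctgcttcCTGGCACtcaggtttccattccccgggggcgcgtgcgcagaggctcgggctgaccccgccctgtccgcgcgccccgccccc
Mog: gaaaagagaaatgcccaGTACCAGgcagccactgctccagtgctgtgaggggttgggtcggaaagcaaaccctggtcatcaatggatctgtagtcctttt

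The *Mobp* promoter held 6 matches to ACAAAG, all in the reverse orientation CTTTGT and between 243 and 120 bases before the start. Of 32851 promoters in the RefSeq table, 16.5% held at least 1 match to this motif. *Mobp* was the 1 promoter with 6 or more, a limit taken from its own count. *Mag* and *Cnp* each held 1 match to ACAAAG and 1 to CTGGCAC, the latter found in 4.19% of all promoters. *Mag* has 3 promoter entries, of which 2 overlapping ones hold these matches, and the one shown starts at the outermost transcript. *Mog* held 1 match to CTGGTAC, 83 bases before the start, which 1.83% of all promoters hold. No match to AACAAT (9.42% of all promoters) or CAGCTG (13%) was found in a member. The share of all promoters with a match to any of these motifs was not counted, so the number of members with a match cannot be set against it. A match describes the letters of the window and does not show that a factor binds there.

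Total counts ranged from 18550922 to 35047494 per library at E18.5 and from 25256326 to 45134998 at P21. *Nova1* itself was listed at 98.4 to 125.9 TPM (counts per exon length, scaled to the same total in every library) at E18.5. At P21 it lay at 45.7 to 52.7 TPM in midbrain and, in cortex, at 23 to 25.5 TPM, and the genotypes overlapped in each. This level does not check the genotype, since the knock-in changes the coding sequence and does not remove the gene. One library stood apart for genes of peripheral nerve. *Prx*, which encodes periaxin of Schwann cells, was at 8.07 TPM in P21 midbrain wt/wt replicate 2 and at 0.38 to 2.53 TPM in the other 7 P21 midbrain libraries. The fits of the members that include this library are given with and without it.

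In P21 midbrain the 9 members together made up 1.31% to 1.43% of all TPM (median 1.36%, n = 8). Their share was 0.399% to 0.455% in P21 cortex (median 0.419%, n = 8) and 0.0109% to 0.0142% in E18.5 midbrain (median 0.0119%, n = 12). The 3 ranges do not overlap. The median summed level was 3.24-fold higher in P21 midbrain than in P21 cortex and 114-fold higher than in E18.5 midbrain. As a share of all counts rather than TPM, the latter ratio was 186. In bulk tissue, fewer myelinating cells and less of these transcripts per cell cannot be told apart.

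**Figure D1:**
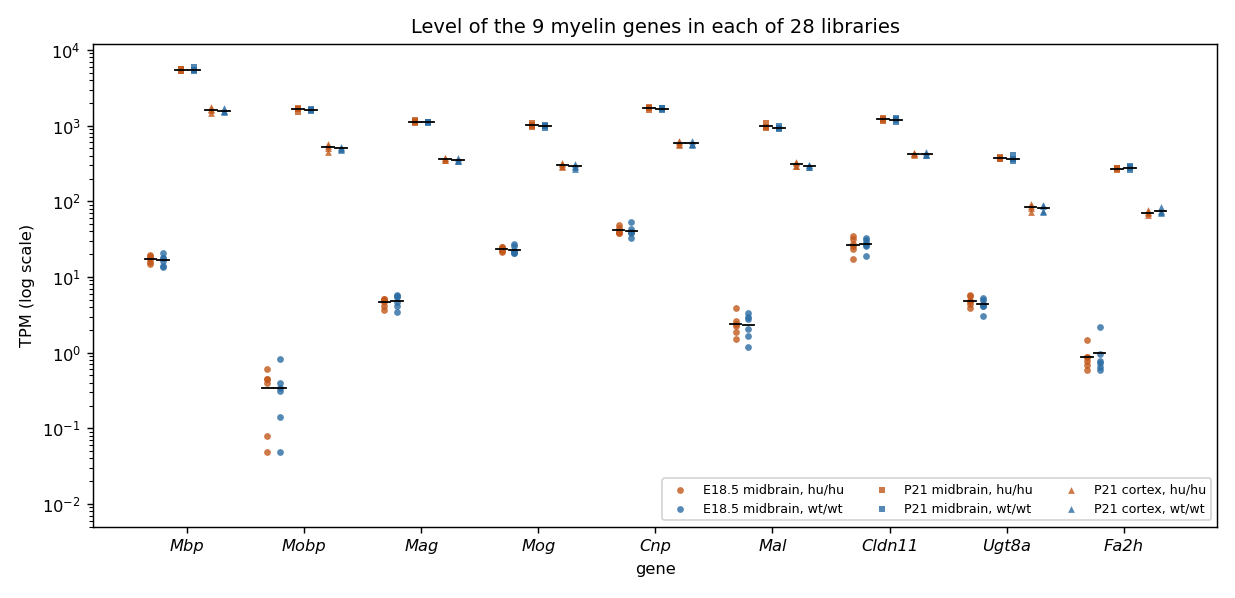
Level of each member in each library (points, TPM on a log scale) with the mean of each group as a short line. For every gene the E18.5 midbrain libraries lie lowest, the P21 cortex libraries between, and the P21 midbrain libraries highest, and the genotypes overlap in each age and region.

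The order of the members by TPM differed between the ages. In P21 midbrain *Mbp* came first with a median of 5426 TPM, which was 39.8% of the sum of the 9. It was followed by *Cnp* (1695), *Mobp* (1638), *Cldn11* (1213), *Mag* (1107), *Mog* (988), *Mal* (949), *Ugt8a* (361) and *Fa2h* (275). The ranges of *Cnp* and *Mobp*, of *Cldn11* and *Mag*, of *Mag* and *Mog*, and of *Mog* and *Mal* overlapped, while all other neighbours in this order were separate. P21 cortex had the same order except that *Mal* (median 297 TPM) and *Mog* (296) changed places, with *Mal* higher in 5 of 8 libraries. Neighbours with overlapping ranges in cortex were *Cnp* and *Mobp*, *Mal* and *Mog*, and *Ugt8a* and *Fa2h*. At E18.5 *Cnp* came first with a median of 39.1 TPM and 33.7% of the sum, ahead of *Cldn11* (26.9), *Mog* (22.9) and *Mbp* (17.4). *Mbp* held 14.2% of the sum at E18.5. *Mag* (4.83), *Ugt8a* (4.61), *Mal* (2.31), *Fa2h* (0.769) and *Mobp* (0.368) followed. Of the 8 neighbouring pairs in the E18.5 order, only *Mbp* and *Mag* had separate ranges, although *Cnp* exceeded *Cldn11*, and *Fa2h* exceeded *Mobp*, in 12 of 12 libraries.

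The comparison of ages in midbrain asked how the members differ between the perinatal and the juvenile brain. All 9 members were higher at P21 than at E18.5 by edgeR's quasi-likelihood test with genotype in the model, called where p was under 0.05 and also under 0.1 after Benjamini-Hochberg adjustment. Adjusted p ranged from 3.98e-32 for *Mbp* to 3.12e-26 for *Cldn11*. Of all 16330 genes tested, 42.4% were called higher at P21, so the call by itself says little about the members. The size of the difference was less common. Each member had a log2 fold change of at least 3, as did 2.33% of all genes. Every P21 midbrain library lay above every E18.5 library for each of the 9, which held for 23.3% of all genes. The members' median log2 fold change was 8.08, and that of all genes was -0.02.

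Among the basic proteins, *Mbp* ranged from 13.4 to 21 TPM at E18.5 (median 17.4, n = 12) and from 5231 to 5939 TPM at P21 (median 5426, n = 8). The fold change was 372 (log2 8.54 ± 0.07, SE), and no E18.5 library came near the P21 range. *Mobp* was close to absent at E18.5. Its counts there were 3, 19, 18, 2, 28 and 32 in the Nova1hu/hu libraries 1 to 6 and 2, 18, 18, 6, 40 and 15 in the Nova1wt/wt libraries 1 to 6, which is 0.0488 to 0.823 TPM. At P21 it was at 1519 to 1721 TPM. The log2 fold change of 12.36 ± 0.18 was the largest of the 9 and ranked 3 among all genes tested. *Mobp* was thus below every other member at E18.5 and behind only *Mbp* and *Cnp* in P21 midbrain.

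Of the adhesion and surface proteins, *Mag* went from 3.47 to 5.85 TPM at E18.5 to between 1068 and 1171 TPM at P21, a log2 fold change of 8.08 ± 0.07. *Mog* had a smaller difference, 5.62 ± 0.05, because its listed E18.5 level was higher, between 20.5 and 27.6 TPM. Per exon length *Mog* exceeded *Mbp* in 12 of 12 E18.5 libraries, at a ratio of 1.06 to 1.72, and lay at 0.173 to 0.192 of *Mbp* in P21 midbrain.

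The next gene to *Mog* was examined for this reason, after its values had been seen. *Zfp57*, which encodes a zinc-finger protein of imprinting control, lies at chr17:37001163-37010729 in RefSeq GRCm38.p6, and its end is 10 bases from the end of *Mog* at chr17:37010740-37023398. The 2 genes are transcribed towards each other, and whether reads were counted by strand is not given in the sources used here. *Zfp57* was at 114.7 to 140.2 TPM at E18.5 and at 8.15 to 9.97 TPM in P21 midbrain. The ratio of *Mog* to *Zfp57* was 0.171 to 0.197 in the 12 E18.5 libraries, a coefficient of variation of 5.02%, against 13.4% for the ratio of *Mog* to *Mbp*. The deviations of *Mog* and *Zfp57* from their E18.5 means correlated at r = 0.89 over 12 libraries. Within a library both values come from the same dissection and depth. *Mog* correlated at r = 0.12 with the mean of the other 8 members. At P21 the ratio of *Mog* to *Zfp57* was 103 to 116 in midbrain and 28 to 39.4 in cortex. Its coefficient of variation was 4.87% over the 8 juvenile midbrain libraries and 10.7% over the 8 of cortex. For *Mog* to *Mbp* these values were 3.60% and 3.92%. Deviations of *Mog* and *Zfp57* correlated at r = 0.82 among the juvenile midbrain libraries and at 0.56 among those of cortex. The ratio to *Zfp57* thus varied less than the ratio to *Mbp* at E18.5, and more than it in both regions at P21. Over the 16 P21 libraries *Mog* correlated at r = 0.82 with the mean of the other 8 members. The part of reads from *Zfp57* in the E18.5 level of *Mog* was not tested.

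**Figure D2:**
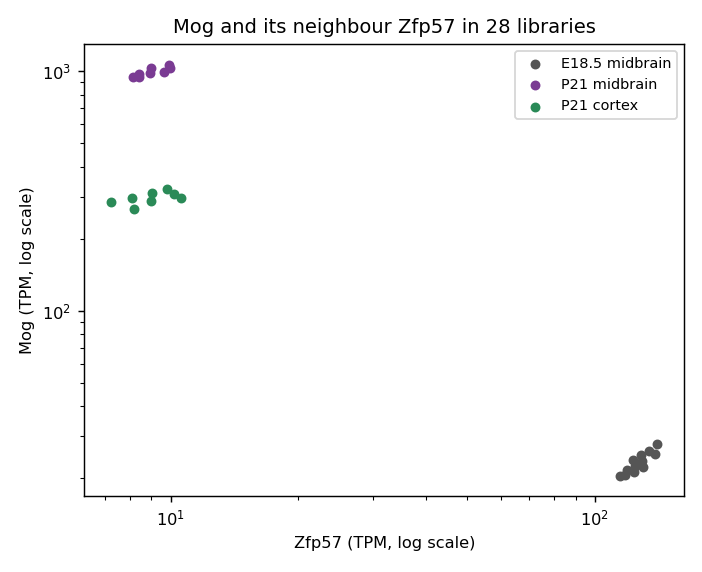
*Mog* against *Zfp57* in each of the 28 libraries (TPM, both axes on a log scale). The 12 E18.5 libraries form a narrow diagonal at a ratio of 0.171 to 0.197, and the P21 libraries lie apart, at ratios of 28 to 39.4 in cortex and 103 to 116 in midbrain.

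*Cnp* had the smallest difference between ages of the 9, from 33.2 to 53.7 TPM at E18.5 to between 1618 and 1751 TPM at P21, a fold change of 47.2 (log2 5.56 ± 0.07). It was also the most abundant member at E18.5. *Mal* went from 1.18 to 3.89 TPM to between 905 and 1074 TPM, a log2 fold change of 8.87 ± 0.11 that was second to that of *Mobp*. *Cldn11* went from 17.3 to 34.4 TPM to between 1129 and 1248 TPM, or 5.70 ± 0.09. At E18.5 *Cldn11* varied apart from the rest, with r = -0.19 against the mean of the other 8 over the 12 libraries.

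The lipid enzymes lay lowest of the 9 at P21 and among the lower members at E18.5. *Ugt8a* went from 3.07 to 5.75 TPM to between 343 and 408 TPM (log2 6.53 ± 0.07). *Fa2h* went from 0.589 to 2.21 TPM to between 256 and 293 TPM (log2 8.37 ± 0.10). Both enzymes act on the same lipid, and their fold changes of 92.1 (95% confidence interval 83.5 to 101.6) and 331 (287 to 382) did not overlap. Without P21 midbrain wt/wt replicate 2, all 9 members were again called higher at P21, with log2 fold changes of 5.56 to 12.36. E18.5 and P21 libraries differ in depth as well as age, and any difference in library preparation between the ages cannot be told apart from age.

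The comparison of regions at P21 asked how the members differ between midbrain and cortex of mice of 1 age. All 9 members were called higher in midbrain, with adjusted p from 4.24e-25 (*Mag*) to 2.26e-21 (*Ugt8a*) in edgeR's quasi-likelihood test, where 37.9% of 16345 genes were called higher in midbrain. Each member had a log2 fold change of at least 1, as did 7.81% of all genes, and ranges that did not overlap between regions, as did 28.1%. The members' median was 1.60 on the log2 scale, and that of all genes 0.00. The 9 log2 fold changes spanned 1.43 to 2.09, a narrower span than the 5.56 to 12.36 between ages.

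*Mbp* was at 5320, 5606, 5302 and 5578 TPM in the Nova1hu/hu libraries 1 to 4 of P21 midbrain and at 5939, 5451, 5231 and 5401 TPM in the Nova1wt/wt libraries 1 to 4. In cortex it was at 1609, 1755, 1486 and 1670 TPM in Nova1hu/hu and at 1705, 1542, 1507 and 1564 TPM in Nova1wt/wt libraries. The lowest midbrain library was thus far above the highest cortex library, and the genotypes were interleaved in both regions. The fold change between regions was 3.24 (log2 1.70 ± 0.03).

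*Mobp* (log2 1.60 ± 0.03), *Mog* (1.67 ± 0.03), *Mag* (1.57 ± 0.02) and *Mal* (1.59 ± 0.03) lay close to each other, between 2.96-fold and 3.19-fold. *Cnp* (1.45 ± 0.02) and *Cldn11* (1.43 ± 0.03) had the smallest differences, 2.73-fold and 2.70-fold. In each library *Cnp* was 0.287 to 0.320 of *Mbp* in midbrain and 0.356 to 0.377 of *Mbp* in cortex. *Cldn11* was 0.210 to 0.228 of *Mbp* in midbrain and 0.249 to 0.274 in cortex. Neither pair of ranges overlapped, so these 2 genes made up a larger part of the members' transcripts in cortex.

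The lipid enzymes had the largest regional differences. *Ugt8a* was at 343 to 408 TPM in midbrain (median 361) and at 72.6 to 91.3 TPM in cortex (median 84.3), a fold change of 4.25 (log2 2.09 ± 0.05). *Fa2h* was at 256 to 293 TPM in midbrain and at 65.3 to 84.1 TPM in cortex, a fold change of 3.54 (log2 1.82 ± 0.04). *Ugt8a* was 0.063 to 0.0721 of *Mbp* in midbrain and 0.0417 to 0.06 of *Mbp* in cortex, without overlap. For *Fa2h* these ratios were 0.0481 to 0.052 and 0.0422 to 0.0496, which overlap. Without P21 midbrain wt/wt replicate 2, the library with high *Prx*, all 9 members were called higher in midbrain with log2 fold changes of 1.43 to 2.10. The largest move of a member's fold change between ages or regions when that library was left out was 0.0122 on the log2 scale.

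**Figure D3:**
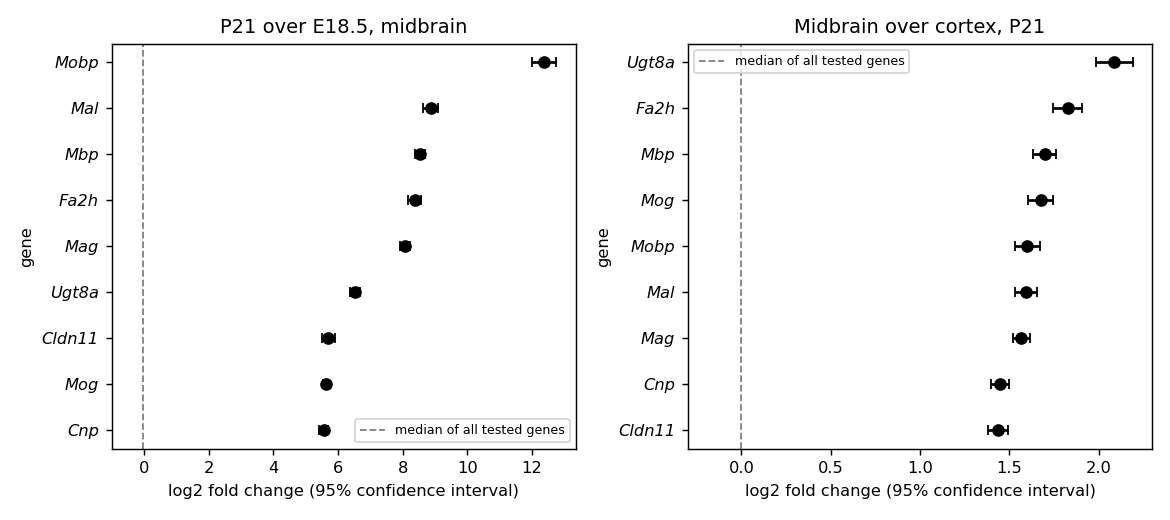
Log2 fold change of each member between ages in midbrain (left) and between regions at P21 (right), with 95% confidence intervals and the median of all tested genes as a dashed line. *Mobp* leads the age comparison at 12.36, *Ugt8a* leads the region comparison at 2.09, and *Cnp* is among the lowest in both.

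The comparison of genotypes within each age and region asked whether the members' levels differ between Nova1hu/hu and Nova1wt/wt mice. No member was called in any of the 3 comparisons. In edgeR's quasi-likelihood test 0 of 15540 genes (0%) were called in E18.5 midbrain, 0 of 15972 (0%) in P21 midbrain and 0 of 15767 (0%) in P21 cortex, with 201, 426 and 450 genes at an unadjusted p under 0.05. DESeq2 and edgeR's likelihood ratio test each called 0, 1 and 0 genes, and the fit with the replicate number as a block called 0, 4 and 0, none of them a member.

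The size of what could be seen differed by member and age. In P21 midbrain the members' log2 fold changes (Nova1hu/hu over Nova1wt/wt) lay between -0.04 for *Fa2h* and 0.08 for *Mal*, and their 95% confidence intervals between -0.13 and 0.17. In P21 cortex they lay between -0.08 for *Fa2h* and 0.09 for *Mal*, with intervals between -0.21 and 0.20. In E18.5 midbrain they lay between -0.16 for *Fa2h* and 0.16 for *Ugt8a*. There the intervals were wide for genes with few counts, -1.09 to 1.06 for *Mobp* and -0.86 to 0.53 for *Fa2h*, but -0.15 to 0.24 for *Mbp* and -0.19 to 0.22 for *Cnp*. All these intervals come from the fit without pairing. With the replicate number as a block, the E18.5 standard error was 0.27 in place of 0.51 for *Mobp*. It was 0.24 in place of 0.33 for *Fa2h* and 0.049 in place of 0.091 for *Mbp*. Without P21 midbrain wt/wt replicate 2, 0 of the 9 members were called in P21 midbrain, with log2 fold changes of -0.03 to 0.08. The members' median log2 fold change was 0.01, 0.02 and 0.04 in the 3 comparisons, beside medians of 0.00 over all genes.

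*Mal* was the 1 member with an unadjusted p under 0.05. In P21 midbrain it was at 969, 969, 930 and 1074 TPM in Nova1hu/hu libraries 1 to 4 and at 923, 905, 924.3 and 976 TPM in Nova1wt/wt libraries 1 to 4. It was higher in Nova1hu/hu in 4 of 4 same-numbered pairs, although the ranges of the genotypes overlapped. The log2 fold change was 0.08 ± 0.04 (unadjusted p = 0.0438 and adjusted p = 0.999958 in edgeR's quasi-likelihood test), and an exact two-sided permutation test gave p = 0.171, where the smallest p that 4 against 4 can give is 0.0286. Without wt/wt replicate 2, where *Mal* was the lowest of the 8, the log2 fold change was again 0.08 and was not called. In P21 cortex *Mal* was at 295, 322, 293 and 334 TPM in Nova1hu/hu and at 299, 280, 288 and 305 TPM in Nova1wt/wt libraries, higher in 3 of 4 pairs. The log2 fold change there was 0.09 ± 0.04 (unadjusted p = 0.0566 in edgeR, exact permutation p = 0.2). With the replicate number as a block the unadjusted edgeR p was 0.0143 in midbrain and 0.0149 in cortex, with adjusted p of 0.999 and 0.802. At E18.5 the log2 fold change of *Mal* was 0.03 ± 0.26, with 3 of 6 pairs higher in Nova1hu/hu. The difference in *Mal* thus did not pass the threshold in any fit.

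Whether the genotype difference itself varied with age or region was tested as an interaction. No member was called in either term, and 0% of 16330 and 0% of 16345 genes were called in edgeR's quasi-likelihood test, with 303 and 373 genes at an unadjusted p under 0.05. DESeq2 called 0 genes in each term and the likelihood ratio test called 0 and 2. The members' interaction terms lay between -0.13 (*Ugt8a*) and 0.13 (*Fa2h*) for age and between -0.05 (*Mbp*) and 0.05 (*Fa2h*) for region, on the log2 scale. Without P21 midbrain wt/wt replicate 2 the terms for region lay between -0.05 and 0.06, and 0 of the 9 were called in either term.

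**Figure D4:**
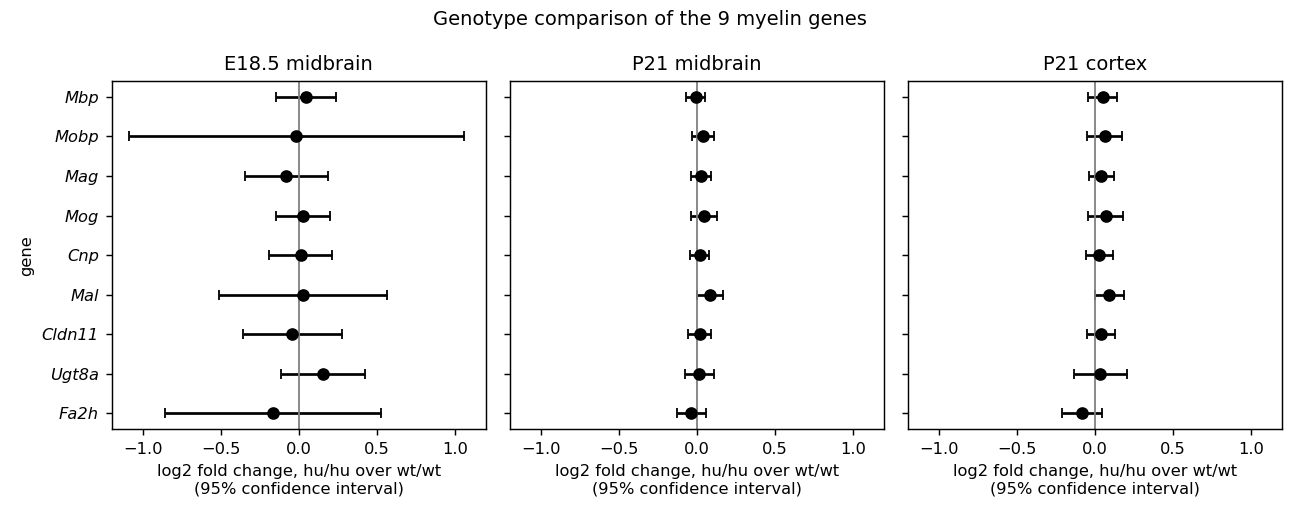
Log2 fold change of each member between genotypes in the 3 age and region groups, with 95% confidence intervals. The intervals are widest for *Mobp* and *Fa2h* at E18.5 and lie between -0.21 and 0.20 in both P21 groups, where 1 of the 18 intervals, that of *Mal* in midbrain, leaves out 0.

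Within the E18.5 libraries several members were high in both libraries of 1 replicate number. In the fifth library of each genotype *Fa2h* was at 1.48 TPM (31 counts) in Nova1hu/hu and 2.21 TPM (49 counts) in Nova1wt/wt, while the other 10 libraries lay between 0.589 and 0.950 TPM. *Cnp* was at 48.7 and 53.7 TPM in that pair and at 33.2 to 45 TPM in the others, and *Mbp* at 19.2 and 21 TPM beside 13.4 to 18.8 TPM. *Mobp* reached 0.609 and 0.823 TPM there. For 5 of the 9 members (*Mbp*, *Mobp*, *Cnp*, *Ugt8a* and *Fa2h*) the fifth library was the highest of its genotype in both genotypes, which held for 7.31% of the 15540 genes tested. *Mog*, *Mag*, *Mal* and *Cldn11* did not share this. The pattern was noticed in the values and is given as a description.

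**Figure D5:**
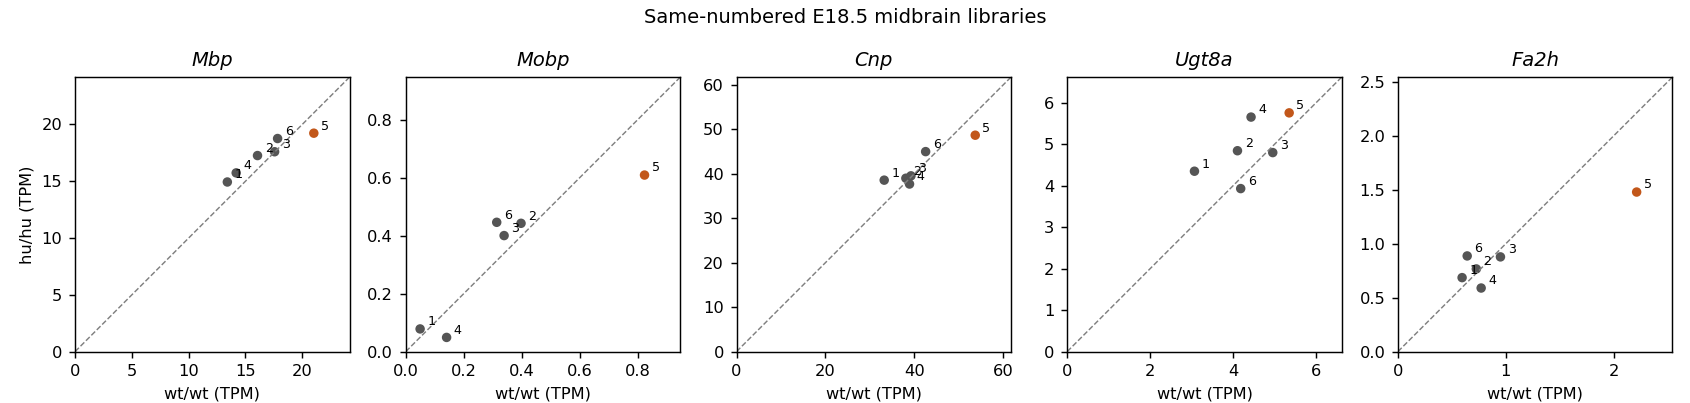
TPM of 5 members in same-numbered E18.5 midbrain libraries, Nova1wt/wt on the horizontal and Nova1hu/hu on the vertical axis, with the replicate number beside each point and the line of equal values dashed. The pair numbered 5 (orange) is the highest on both axes in each panel.

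Other cell types moved with this pair. The summed TPM of 9 markers of precursors and of committed or newly formed oligodendrocytes was 175 and 191 in the fifth libraries (131 to 168 in the others). That of 7 astrocyte markers was 1025 and 1126 (758 to 1038) and that of 8 microglia markers 256 and 257 (184 to 226). The 6 endothelial markers summed to 185 and 176 TPM (135 to 169), and 8 neuron markers to 4103 and 4303 TPM (4199 to 4575). Each of the 4 non-neuronal lists was highest in the fifth library of both genotypes, and the part of these cell types in the members' levels was not tested. Without the fifth Nova1wt/wt library, the genotype difference of *Fa2h* at E18.5 changed sign, from -0.16 to 0.25 on the log2 scale, and was called in neither fit.

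At P21 most members varied together. Over the 16 P21 libraries, as deviations from the mean of each region, *Cldn11* correlated with the mean of the other 8 at r = 0.92, *Cnp* at 0.86, *Mbp* at 0.86, *Mog* at 0.82, *Mag* at 0.78 and *Mobp* at 0.70. *Fa2h* (0.58) and *Mal* (0.54) followed less closely. *Ugt8a* did not follow over the 16 libraries (r = 0.04) or over the 8 of cortex (-0.10). Over the 8 of midbrain it was at 0.46, where the members ranged from 0.43 (*Mal*) to 0.92 (*Cldn11*). In cortex *Ugt8a* was at 91.3, 73.1, 86.3 and 82.3 TPM in Nova1hu/hu libraries 1 to 4 and at 87.8, 72.6, 90.4 and 75.3 TPM in Nova1wt/wt libraries 1 to 4. Libraries 1 and 3 were thus above libraries 2 and 4 within each genotype. Its deviations in cortex moved with those of *Rn45s*, a ribosomal precursor RNA listed at 1.27% to 4.46% of TPM there, at r = 0.64 over 8 libraries. In P21 midbrain this correlation was -0.14 for *Ugt8a*, and over the 9 members it ranged from -0.76 (*Fa2h*) to 0.43 (*Mal*) there and from -0.33 (*Mal*) to 0.64 in cortex. The part of ribosomal RNA in *Ugt8a* was not tested. These correlations share the depth and composition of each library and carry no test.

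Among the 10 genes most like the members at P21, by Pearson's r of log2(TPM + 0.1) with the mean of the 9 over 16 libraries, were *Anln* (0.85), *Gjb1* (0.83), *Scd2* (0.83), *Clic4* (0.83), *Padi2* (0.82), *Cdk5rap2* (0.82), *Enpp6* (0.80), *Galnt6* (0.80) and *Cnn3* (0.79), of 16336 genes. *Gjb1* encodes a gap junction protein of oligodendrocytes. *Enpp6* is a marker of newly formed oligodendrocytes. The list depended on pooling the regions: 0 of the 10 were among the first 10 in P21 midbrain alone, and 2 of the 10, including *Padi2*, in P21 cortex alone. At E18.5, over 12 libraries, the closest genes were *Plcb3*, *Arhgap31*, *Fyco1*, *Inppl1* and *Pxn*, with r of 0.94 to 0.95. None of these 5 is a gene of the myelin lists used here.

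Other genes of the sheath shared the members' direction across ages, some with smaller differences than any member. All 14 genes of a list of sheath and junction proteins were called higher at P21 in midbrain, with a median log2 fold change of 5.36. Of the 14, 10 passed the filter on low counts in the E18.5 libraries alone. For a gene that passed only through its P21 counts, a call as higher at P21 follows from the filter and is no separate result. Over all genes, 42.4% were called higher at P21 and 37.9% higher in midbrain than in cortex. *Sirt2* (2.98 ± 0.03) and *Gsn* (5.15 ± 0.06) were the most abundant, followed by *Gpm6b*, a membrane glycoprotein also used by neurons, at 0.85 ± 0.04 and the tetraspanin *Cd9* at 1.43 ± 0.06. *Opalin*, an oligodendrocyte membrane glycoprotein, had 0 counts in 12 of 12 E18.5 libraries and 215 to 279 TPM in P21 midbrain, at least 442-fold higher against a floor of 3 counts per library. Between regions, 13 of the 14 were higher in midbrain, such as *Tspan2* (1.61 ± 0.03), and *Gpm6b* was lower (-0.66 ± 0.02), with a median of 1.47.

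Of 11 genes that supply sphingolipids and sulfatide, 9 were higher and 2 lower at P21 (median 1.66). Over all genes, 42.4% were called higher at P21 and 37.9% higher in midbrain than in cortex. *Cers2*, the ceramide synthase for very long acyl chains, rose by 2.21 ± 0.04, *Elovl1*, an elongase of such chains, by 2.77 ± 0.06, and *Degs1*, the dihydroceramide desaturase, by 1.66 ± 0.03. *Ugcg*, which makes glucosylceramide and so competes with *Ugt8a* for ceramide, fell by 0.34 (SE 0.04). In midbrain against cortex 9 of the 11 were higher and 2 did not pass the test, *Ugcg* (-0.08 ± 0.04) being one of them (median 0.81). The members' own lipid enzymes had larger differences than these medians in both comparisons.

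The transcription factors of the lineage were higher at P21 in 7 of 8 cases (median 2.35) and higher in midbrain than in cortex in 8 of 8 (median 1.31). Over all genes, 42.4% were called higher at P21 and 37.9% higher in midbrain. *Myrf*, which drives myelin gene transcription, had the largest difference between ages of the 4 most abundant (5.62 ± 0.10), ahead of *Sox10* (3.62 ± 0.11) and *Olig1* (2.15 ± 0.07). *Tcf7l2*, a factor of differentiating oligodendrocytes and of some neurons, was lower at P21 (-1.19 ± 0.05). Between regions *Myrf* differed by 1.87 ± 0.03, *Sox10* by 1.22 ± 0.04 and *Olig1* by 1.17 ± 0.05. A list of 9 markers mixed precursors with committed and newly formed cells, and 8 of the 9 were higher at P21 (median 3.23). Of the 9, 8 passed the filter on low counts in the E18.5 libraries alone. *Bcas1* (5.13 ± 0.07) and *Gpr17* (3.23 ± 0.11) of committed cells had large differences. *Lhfpl3* differed by 0.52 ± 0.05, and *Pdgfra*, the receptor of proliferating precursors, was lower (-0.25 ± 0.08). The median of this list thus does not describe precursors alone. In midbrain against cortex 8 of the 9 were higher (median 0.79), among them *Bcas1*, *Lhfpl3* (1.23 ± 0.04), *Gpr17* (0.84 ± 0.05) and *C1ql1* (0.79 ± 0.09).

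Genes of peripheral myelin were measured as a check of nerve carried over with the dissection. Their summed TPM was 65 to 75.4 at E18.5, 88.8 to 176 in the midbrain and 72.9 to 83.1 in the cortex of P21 mice, and 5 of the 6 passed the filter on low counts. Of these, 2 were called higher and 1 lower at P21, and 3 higher and 2 lower in midbrain. Over all genes, 42.4% were called higher at P21 and 37.9% higher in midbrain. Between regions *Pmp22* was higher (1.51 ± 0.11), while *Drp2* (-0.90 ± 0.04) and *Egr2* (-4.19 ± 0.46) were lower. The mean of *Drp2*, which enters these sums, was 40.5 TPM at E18.5, 23.9 in P21 midbrain and 42.2 in P21 cortex. In the library with high *Prx*, *Pmp22* was at 134 TPM (60.9 to 79.7 in the other 7) and *Ncmap* at 7.14 TPM (2.74 to 4.18). The members in that library, *Mbp* at 5451 TPM for example, lay within the range of the other P21 midbrain libraries except for *Mal* (905) and *Ugt8a* (343), which were the lowest of the 8.

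Markers of other cells differed between the groups as well. At P21 in midbrain 6 of 8 neuron markers were higher and 2 lower than at E18.5, with *Snap25* at 3.03 ± 0.04 and *Tubb3* at -1.37 ± 0.04. Higher at P21 were also 6 of 7 astrocyte markers (*Aldoc* 3.12 ± 0.07), 8 of 8 microglia markers (*Csf1r* 2.01 ± 0.07), and 3 of 6 endothelial markers with 2 lower. The astrocyte marker *Aldh1l1* was lower (-0.24 ± 0.06). Over all genes, 42.4% were called higher at P21 and 7064 of 16330 were called lower. In midbrain against cortex 4 neuron markers were higher (*Nefl* 1.22 ± 0.04) and 4 lower (*Snap25* -0.20 ± 0.02). Of 7 astrocyte markers 5 were higher and 2 lower (*Slc1a2* -0.69 ± 0.03 and *Slc1a3* -0.88 ± 0.03). Lower were also 8 of 8 microglia markers (*Csf1r* -0.42 ± 0.03), and 3 of 6 endothelial markers were higher. Over all genes, 37.9% were called higher in midbrain and 6169 of 16345 were called lower. No gene of any of these lists that passed the filter on low counts was called between genotypes in any of the 3 groups. At E18.5 that filter kept 10 of 14 sheath and junction genes, 8 of 9 precursor-list markers and 4 of 6 peripheral genes. In both P21 groups it kept 5 of 6 peripheral genes. How far the make-up of the tissue enters the members' differences between ages and regions was not tested.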

How the data were processed

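The authors sequenced poly(A)-selected RNA, used OLego for alignment to mm10 and Quantas for gene counts. Their processing notes name edgeR, and the gene annotation is not given in the sources used here. The authors deposited, for each library, an expected count, an exon length (per the file headers, in bases) and an RPKM value per gene. The deposited expected counts were not whole for 751 to 2710 genes per library and were rounded for the tests. The deposited RPKM values followed from counts, lengths and totals (largest relative difference 2.27e-13) and were not used otherwise. TPM was computed from counts before rounding, divided by exon length.

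Tests were run over all genes in R 4.3.3 with edgeR 4.0.16 (glmQLFit and glmQLFTest, TMM factors, filterByExpr, two-sided), with genotype in the model for age and region. Genes with p under 0.05 and Benjamini-Hochberg adjusted p under 0.1 were called. Errors of fold changes are standard errors. The fits were tested on simulated counts. DESeq2 1.42.0 and the other alternatives are in the closing section. Permutation tests used scipy 1.17.1 and are exact. *Cers2*, *Myrf* and *Ncmap* appear in the files under older symbols and were matched by gene identifier. Members and lists were chosen with earlier results of these data known. From each list the 4 genes with the highest mean TPM could be named, plus markers at 0, and as most like the members the 10 (P21) or 5 (E18.5) genes of highest r. *Zfp57*, *Rn45s* and *Prx* were named after their values were seen. Some genes are not reported here and were left out of the lists.

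Same-numbered libraries of both genotypes deviated together, at r of 0.231 to 0.487 (E18.5 midbrain), 0.237 to 0.270 (P21 midbrain) and 0.217 to 0.286 (P21 cortex), so the numbers of the labels pair the libraries. What a number marks is not given in the sources used here, nor whether libraries came from 1 animal each, and p-values measure the spread between these libraries. Over all genes, log2 differences between genotypes had median standard errors of 0.087, 0.076 and 0.077 in these groups.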

Additional observations from a re-analysis of the deposited data

Results flagged for a closer look

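Within groups of 4 or 6 libraries, 60 sets of values (9 members and their sum in 6 groups) were examined for a library far from the others by Dixon's criterion, which chance alone meets in about 1 of 20 sets, and 2 sets held one. *Fa2h* was at 1.48 TPM in E18.5 midbrain hu/hu replicate 5, where the next highest library of that group was at 0.886 TPM. It was at 2.21 TPM in E18.5 midbrain wt/wt replicate 5, where the next highest was at 0.950 TPM. Both carry the same replicate number, and these values rest on 31 and 49 counts. No member's genotype difference passed the threshold of the interaction terms with age or region.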

How the results depend on the processing

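The alternatives were RLE factors, fits without a filter or with a minimum of 10 counts per library, DESeq2, the likelihood ratio test, an adjusted p under 0.05, the replicate block and leaving out each library in turn. In 149 of 149 such fits the count of members called stayed within 1.5 times the main count, and 449 of 449 fold changes of single members between ages or regions kept their direction and call. With at least 10 counts in every library 8 of 8 members tested were called higher at P21, since *Mobp* was not tested. The replicate block left 9 members called between ages and 9 between regions and 0 between genotypes. It raised the count of all genes called between genotypes in P21 midbrain from 0 to 4, where DESeq2 and the likelihood ratio test each called 1. Shared numbers were checked only between genotypes within an age and region. Whether they pair libraries across ages or regions was not tested, so the block says little there. For the genotype by region term the likelihood ratio test called 2 genes.

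Some genotype differences turned sign when 1 library was left out, none of them called in any fit. Signs were followed only for the members of highest and lowest difference in each comparison, and for *Mal* within each age and region. Those of the other members were not followed. At E18.5 *Fa2h* moved from -0.16 to 0.25 without wt/wt replicate 5, with a range of -0.36 to 0.25 over the 12 libraries left out, and *Mal* moved from 0.03 to a range of -0.15 to 0.17. The values of *Mal* below 0 were -0.0039 without hu/hu replicate 1, -0.15 without hu/hu replicate 3, and -0.04, -0.11 and -0.0085 without wt/wt replicates 1, 2 and 6. The genotype by age term of *Fa2h* moved from 0.13 to -0.29 without E18.5 wt/wt replicate 5 (range -0.29 to 0.33), and its genotype by region term from 0.05 to -0.0044 without P21 cortex wt/wt replicate 1 (range -0.0044 to 0.0896). As a share of all counts the P21 to E18.5 ratio of the members' summed level was 186 in place of 114. Leaving *Rn45s* out of the total, an alternative chosen after seeing the data, gave 113, and 3.25 in place of 3.24 between regions. With a pseudocount of 1, 8 of the 10 genes named as most like the members at P21 and 3 of the 5 at E18.5 were named again, and 0 and 2 of the 10 in midbrain or cortex alone. Depth limits the E18.5 comparison of *Mobp*, with 2 to 40 counts per library, and of *Fa2h*, with 11 to 49.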
